A study of Mus musculus with 20 samples.

Results

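Fibroadipogenic progenitors are stromal cells of skeletal muscle that give rise to fibroblasts and fat cells. The 10 libraries described here hold messenger RNA of such cells from mice carrying a pancreatic tumour (KPC), sequenced at 3 days after tumour cells were placed, and they are 10 of the 20 libraries in the series. They were taken by their library codes: 4 libraries at day 14, 3 at day 21 and 3 at day 26. The KPC mice had received KPCY cells, a cultured tumour line, in 50 µL into the pancreas. The other 10 libraries come from sham-operated controls, 3 at day 14, 3 at day 21 and 4 at day 26. All mice were male C57BL/6J, and the tissue was hindlimb muscle in every group. The labels call the replicates biological, and neither the age nor the number of mice behind a library is given in the sources used here. The sort kept live, nucleated, SCA-1-positive cells that were negative for α7-integrin, CD45 and CD31. The question addressed is which transcripts of these cells moved as the tumour advanced, in a series on cancer cachexia, the wasting that accompanies some tumours.

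Progenitors of this kind support muscle fibres by secreting growth factors and matrix, and they are a main source of collagen in muscle. Wasting in cancer comes with raised interleukin-6 family cytokines, which signal through the shared receptor gp130 and the transcription factor STAT3, and with raised glucocorticoids, steroid hormones whose receptor is itself a transcription factor. STAT3 switches on its own inhibitor SOCS3, the transcription factors C/EBPβ and C/EBPδ, and acute-phase genes such as lipocalin 2 and the serum amyloids. Glucocorticoids induce FKBP5, PER1, ZBTB16 and the metallothioneins, and in muscle they favour FoxO-driven breakdown of protein.

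Markers of the labelled cell type were detected in every library, but not all at one level. Pdgfra, which encodes the growth factor receptor that marks these progenitors, lay between 1198 and 1669 CPM (counts scaled to the effective total of each library, over all 20 libraries) in KPC libraries and between 1223 and 1443 CPM in controls. Ly6a, which encodes SCA-1, had 978, 863, 799 and 879 CPM at day 14, 1198, 1130 and 1084 CPM at day 21 and 586, 526 and 1204 CPM at day 26 in KPC mice, against 909.5 to 1460 CPM in the 10 control libraries. Its lowest values were those of the first and second day 26 libraries. Neither gene passed the test for a slope on day (Pdgfra -0.07 ± 0.11 and Ly6a -0.03 ± 0.18 log2 per week, SE; edgeR adjusted p 0.67 and 0.93). Cd34, a surface protein of these progenitors whose exons overlap Gm16897 on the other strand, had 2033, 2065, 1931 and 1986 CPM at day 14, 1265, 869.8 and 1201 CPM at day 21 and 346, 324 and 1839 CPM at day 26 in KPC mice, against 2044 to 2735 CPM in the 10 control libraries. Dpt, the matrix protein dermatopontin, had 2415, 2514, 2213 and 2283 CPM at day 14, 2076, 1725 and 1928 CPM at day 21 and 278, 639.7 and 2099 CPM at day 26 in KPC mice, against 2532 to 3187 CPM in controls. Both were lowest in the first and second day 26 libraries. Their slopes did not pass the test (Cd34 -0.72 ± 0.29 and Dpt -0.64 ± 0.30, edgeR adjusted p 0.099 and 0.16), and did without the third day 26 library (-1.33 and -1.06, edgeR adjusted p 0.00031 and 0.019, between 0.00031 and 0.22 for Cd34 and 0.019 and 0.34 for Dpt over all settings). The Cd34 slope was lower than in controls by 0.94 ± 0.31 (edgeR adjusted p 0.0497), a call that stayed in 1 of 20 fits with a library left out, the one without that library, while the Dpt difference did not pass the test (-0.77 ± 0.32, edgeR adjusted p 0.11). Ptprc, which encodes CD45, stayed at or under 5.75 CPM. Pecam1, which encodes CD31, lay between 12.6 and 242 CPM in KPC libraries and between 4.5 and 24.7 CPM in controls. Counts come from bulk RNA, in which fewer cells of a type and less RNA per cell cannot be told apart.

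Total counts ran from 12920993 to 24815468 at day 14, 15706117 to 20742664 at day 21 and 16801955 to 20072152 at day 26 in KPC mice, and from 14219691 to 26395930 in controls. The first principal component of the 10 KPC libraries carried 43.2% of the variance and followed the days. The day 14 libraries lay at -45.8, -42.8, -48.9 and -34.7, the day 21 libraries at -12.2, 20.8 and -3.89, and the day 26 libraries at 95.5, 95.8 and -23.7. The third day 26 library (replicate 3) therefore lay below all 3 day 21 libraries, and results that rest on it are given with and without it. Each day came in a count table of its own and from library codes of its own, so day and table cannot be told apart, and no value within a batch can be had.

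The slope on day was fitted for each gene over the 10 KPC libraries, as a log2 change per week, and genes with an adjusted p under 0.05 are called (edgeR quasi-likelihood test, Benjamini-Hochberg). Of 13734 genes, 2465 (17.9%) were called, 1618 (11.8%) rising with day and 847 (6.17%) falling. In the 10 controls, fitted the same way, 2066 of 13391 genes (15.4%) were called, 772 (5.77%) rising and 1294 (9.66%) falling. The 2 slopes themselves differed for 1673 of 14141 genes (11.8%) in a fit of all 20 libraries, with 1091 (7.72%) higher and 582 (4.12%) lower in KPC. Without KPC day 26 replicate 3, the KPC slope was called for 4682 of 14205 genes (33%), 2495 (17.6%) rising and 2187 (15.4%) falling, and the slopes differed for 4482 of 14600 (30.7%), 2269 (15.5%) higher and 2213 (15.2%) lower in KPC. Leaving out KPC day 14 replicates 1 to 4 in turn gave 998, 1232, 1515 and 1607 calls for the KPC slope, and leaving out day 26 replicate 2 gave 1066. The control slope had 1015, 1353 and 793 calls without control day 14 replicates 1, 2 and 3 in turn. The difference had 873, 918, 961 and 521 calls without KPC day 14 replicate 1 or 2 or KPC day 26 replicate 1 or 2, and 633, 896, 847, 991 and 1036 without control day 14 replicate 1, 2 or 3 or control day 26 replicate 1 or 4.

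Of the 1618 genes that rose in KPC, 101 (6.24%) also rose in controls, beside 5.77% of all genes tested there. A further 59 fell in controls, and 779 (48.1%) had a slope higher in KPC by the test of the difference. Their median slope was 0.561 log2 per week in KPC and 0.0384 in controls, a description, since the first value chose them. Of the 847 genes that fell in KPC, 333 (39.3%) also fell in controls, beside 9.66% of all genes tested there, and 217 (25.6%) had a slope lower in KPC. Their median slopes were -0.495 in KPC and -0.215 in controls. Over all 13734 genes the medians were 0.00311 in KPC and 0.00276 in controls.

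The steps between days were unequal in what they could show. In the fit of 3 days, 66 of 13734 genes (0.481%) differed between day 21 and day 14, 27 (0.197%) higher and 39 (0.284%) lower at day 21. Between day 26 and day 21 a single gene (0.00728%), Chrdl1, was called, while 1863 genes had an unadjusted p under 0.05. Day 26 differed from day 14 for 2338 genes (17%), 1604 (11.7%) higher and 734 (5.34%) lower. In controls the first step held more, with 3138 genes (23.4%) called between day 21 and day 14 and 64 (0.478%) between day 26 and day 21. The spread among the day 26 KPC libraries enters every KPC step in this fit: without replicate 3 of that day, 3417 genes (24.1%) were called between day 26 and day 21. Fitted alone, the 7 libraries of days 14 and 21 gave 1988 of 13389 genes (14.8%), 1010 (7.54%) higher and 978 (7.3%) lower at day 21. In the fit of 3 days the first step had between 1 and 5 calls without any single library of days 14 and 21, and 203, 222 and 1244 without day 26 replicates 1, 2 and 3. Day 26 against day 14 had 734, 955, 1206 and 1303 calls without day 14 replicates 1 to 4, and 1316, 459 and 5902 without day 26 replicates 1 to 3. The last step had 2 calls without day 14 replicate 3 or day 26 replicate 1 and lost its call without day 21 replicate 2 or 3. Deviations from the group means correlated at 0.19, 0.24 and 0.19 between same-numbered libraries of days 21 and 26. Between differently numbered libraries of different days the correlations ran from -0.33 to 0.24. With the number as a block in a fit of the 6 libraries of days 21 and 26, edgeR called no gene (917 had an unadjusted p under 0.05). DESeq2 called 76 and limma-voom 1. Without the block the same 6 libraries gave no call by edgeR (823 had an unadjusted p under 0.05), 31 by DESeq2 and 2 by limma-voom.

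A test over all 3 days together called 1284 genes (9.35%). Of these, 749 (58.3%) rose at both steps, 330 (25.7%) fell at both, 86 (6.7%) rose and then fell, and 119 (9.27%) fell and then rose. Without day 26 replicate 3 the call covered 5540 genes, with 39% rising at both steps, 37.8% falling at both, 11.9% rising then falling and 11.3% falling then rising. With any other library left out it covered between 7 (without day 14 replicate 3) and 655 (without day 21 replicate 1) genes.

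The 1988 genes of the 2 earlier days served as a scale on which the day 26 libraries, which had no part in choosing them, could be placed. Each library was given a position per gene, 0 at the KPC day 14 mean and 1 at the KPC day 21 mean. For the 1010 genes higher at day 21, the day 26 libraries had median positions of 1.39, 1.64 and 0.652. For the 978 genes lower at day 21, they had 1.44, 1.41 and 0.736. The first and second day 26 libraries thus lay past day 21 in both sets, and the third lay between day 14 and day 21. The genes were chosen by the same 7 libraries that set 0 and 1, which can widen that distance. A position under 1 is therefore a description, and does not show that a library was less advanced than day 21. Controls lay between 0.132 and 0.343 for the higher genes. For the lower genes, controls lay between -0.0975 and 0.0528 at day 14, 0.54 to 0.601 at day 21 and 0.397 to 0.456 at day 26. Controls of the later days thus lay about midway between the KPC means of days 14 and 21 for the lower genes.

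**Figure D1:**
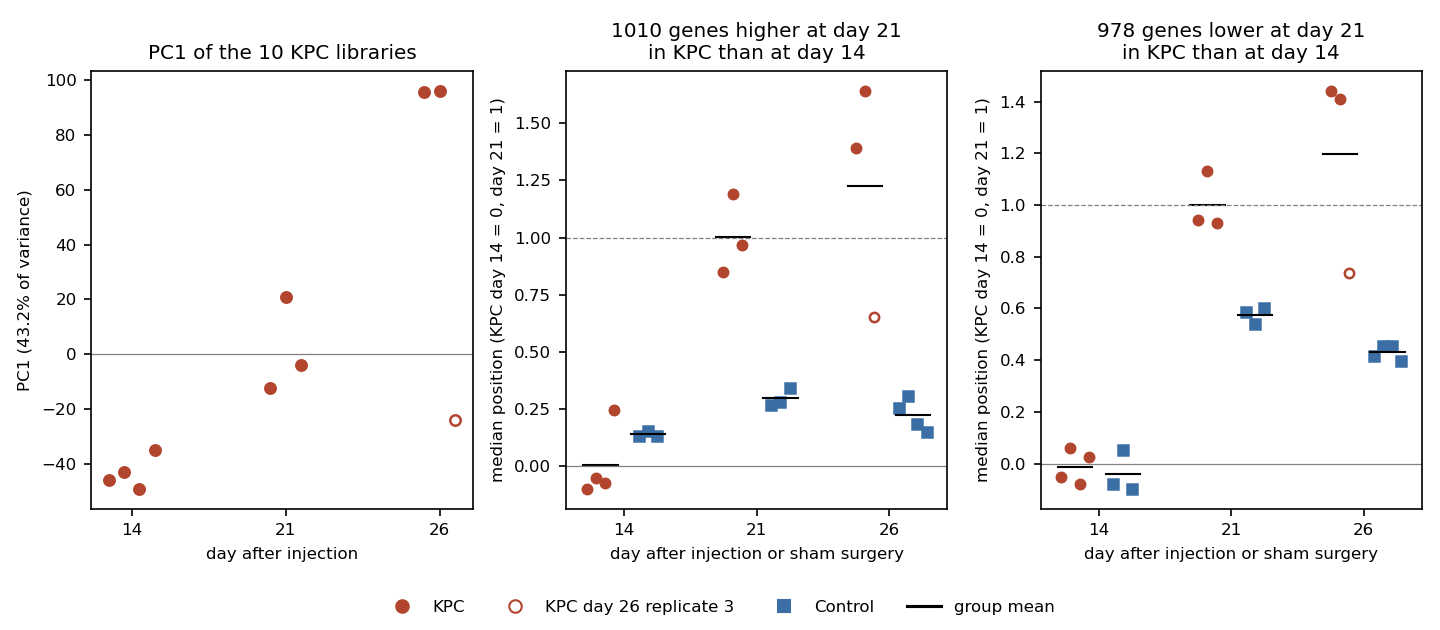
First principal component of the 10 KPC libraries by day (left), and median position of every library over the 1010 genes higher (middle) and 978 genes lower (right) at day 21 than at day 14 in KPC; points are libraries, circles KPC, squares controls, bars group means. The open circle is KPC day 26 replicate 3, at -23.7 on the component and at 0.652 and 0.736 on the scales, while its 2 companions lie at 95.5 and 95.8, and at 1.39 to 1.64.

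Among the steepest rises was Igfbp3 (chromosome 11, 7206086 to 7213923, mm10), whose product binds insulin-like growth factors in the extracellular space. Igfbp3 had 141, 242, 151 and 342 CPM at day 14, 967, 2011 and 712 CPM at day 21 and 9292, 11940 and 216 CPM at day 26 in KPC mice, against 71.1 to 247 CPM in the 10 control libraries. All day 21 libraries lay above all day 14 libraries, the first and second day 26 libraries lay far above both, and the third fell back within the day 14 range. The slope was 2.91 ± 0.54 log2 per week in KPC (SE; edgeR adjusted p 0.0083) and -0.15 ± 0.24 in controls, and the slopes differed by 3.04 ± 0.61 (edgeR adjusted p 0.01). Igf1, the growth factor that this protein binds, fell over the same days. Igf1 had 317, 268, 286 and 227 CPM at day 14, 167, 79.5 and 131 CPM at day 21 and 74.7, 85.6 and 140.3 CPM at day 26 in KPC mice, against 147 to 308 CPM in the 10 control libraries. No KPC library of the later days reached the day 14 range. Its slope was -0.85 ± 0.15 in KPC (edgeR adjusted p 0.0064), lower than in controls by 0.75 ± 0.23 (edgeR adjusted p 0.038). That difference was called in 11 of 20 fits with a library left out, and was lost without KPC day 14 replicate 1, 2 or 3, KPC day 26 replicate 1 or 2, control day 14 replicate 1 or control day 26 replicate 1, 3 or 4 (edgeR adjusted p between 0.0034 and 0.093 over all settings).

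Galnt15 (chromosome 14, 32028989 to 32062197), which encodes an enzyme of the family that starts O-linked glycosylation, followed the same course. Galnt15 had 44.6, 46.2, 63.8 and 89 CPM at day 14, 222, 756 and 439 CPM at day 21 and 1461, 1931 and 179.8 CPM at day 26 in KPC mice, against 57.5 to 111 CPM in the 10 control libraries. Here every later KPC library, the third of day 26 included, lay above every day 14 library and every control. The slope was 2.58 ± 0.42 (edgeR adjusted p 0.0056), higher than in controls by 2.45 ± 0.46 (edgeR adjusted p 0.0083). Apod, which encodes the lipid carrier apolipoprotein D and belongs to the list of the Cxcl14/Smoc2-type progenitor state, was among the most abundant rising genes. Apod had 1411, 969, 733 and 1457 CPM at day 14, 2639, 5509 and 4625 CPM at day 21 and 17930, 11390 and 2202 CPM at day 26 in KPC mice, against 532 to 944 CPM in the 10 control libraries. All later KPC libraries again lay above the day 14 range, and Apod rose by 1.89 ± 0.32 log2 per week (edgeR adjusted p 0.0056), with a difference from controls of 2.02 ± 0.34 (edgeR adjusted p 0.005).

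Cdo1, cysteine dioxygenase, which turns cysteine towards taurine and sulfate, and Chchd10, a small mitochondrial protein, were nearly silent at first. Cdo1 had 2.66, 2.67, 0.973 and 2.42 CPM at day 14, 1.76, 37.4 and 10 CPM at day 21 and 172, 84.2 and 2.53 CPM at day 26 in KPC mice, against 1.1 to 4.07 CPM in the 10 control libraries. Chchd10, whose exons overlap Gm867 and Mmp11 on the other strand, had 0.948, 2.67, 1.72 and 1.83 CPM at day 14, 2.95, 27.8 and 9.69 CPM at day 21 and 115, 69 and 1.11 CPM at day 26 in KPC mice, against 0.118 to 0.992 CPM in controls. For both genes day 21 replicates 2 and 3 and the first and second day 26 libraries were high, and day 21 replicate 1 and day 26 replicate 3 stayed near the day 14 level. The slopes were 3.08 ± 0.67 for Cdo1 and 2.99 ± 0.64 for Chchd10 (edgeR adjusted p 0.013 each). Ccno, a cyclin-like gene known from ciliated cells, rose by 2.86 ± 0.37 (edgeR adjusted p 0.0039), with 0.673 to 2.03 CPM at day 14, 5.26 to 8.37 CPM at day 21 and 48.9, 64.2 and 6.42 CPM at day 26 in KPC mice, against 0.355 to 5.58 CPM in controls. With limma-voom the Cdo1 and Chchd10 slopes were smaller and not called (2.14 and 2.04, limma adjusted p 0.116 and 0.16; lowest over all settings 6.9e-05 for each), and with the replicate block they were not called either (edgeR adjusted p 0.0569 and 0.0704). The slopes of all 6 rising genes named so far stayed called by edgeR with any KPC library left out, while the difference from controls was lost for Chchd10 without KPC day 26 replicate 1 or 2 or any control day 14 library, and with limma-voom (limma adjusted p 0.276, between 0.00027 and 0.28 over all settings), and was not called for Ccno (edgeR adjusted p 0.05).

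**Figure D2:**
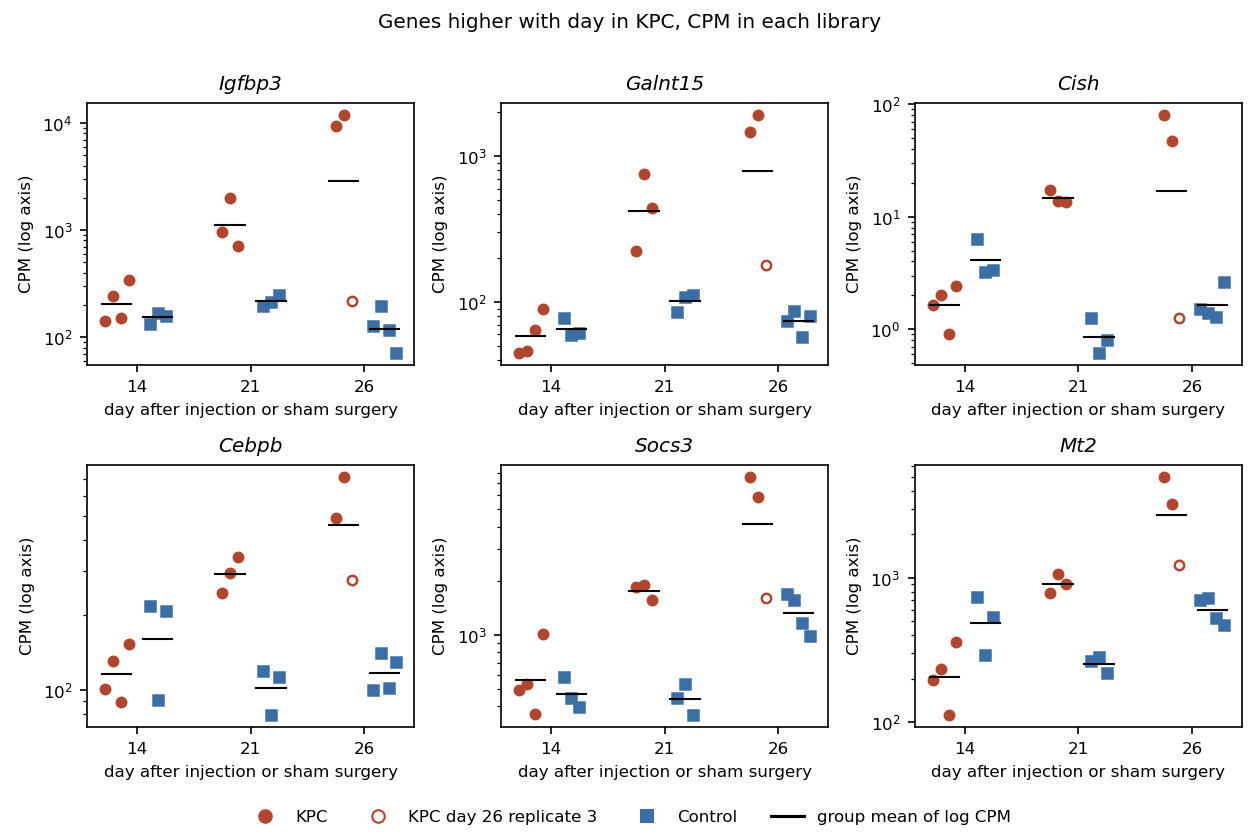
Levels in CPM (log axis) of Igfbp3, Galnt15, Cish, Cebpb, Socs3 and Mt2 in each of the 20 libraries by day; circles are KPC libraries, squares controls, the open circle KPC day 26 replicate 3, and bars the group means of the log values. The KPC groups climb from day to day while controls stay at or near the KPC day 14 level, except Socs3, which also climbs in controls at day 26.

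Genes of the interleukin-6 and STAT3 pathway and the acute phase rose as a group. Of the 26 tested members of that list, 21 rose in KPC, beside 11.8% of all genes, and the other 5 did not pass the test. The median slope of the list was 1.27 log2 per week, against 0.00311 over all genes. In controls 2 of the members rose, beside 5.77% of all genes there, with a median of 0.0526. The slope was higher in KPC for 14 members, beside 7.72% of all genes. Without day 26 replicate 1 the count of rising members was 13, and the count with a higher slope in KPC was 9 without that library or without control day 14 replicate 1.

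Among the receptors and the transducer of this pathway, Il6ra, which encodes the ligand-binding receptor chain, and Stat3 itself moved together. Il6ra had 22.7, 29.6, 32.5 and 35.3 CPM at day 14, 71.1, 111 and 81.2 CPM at day 21 and 102, 171 and 70.2 CPM at day 26 in KPC mice, against 29.5 to 53.2 CPM in the 10 control libraries. Stat3, whose exons overlap Stat5a on the other strand, had 155, 144, 153 and 182 CPM at day 14, 230, 348 and 302 CPM at day 21 and 678, 631 and 268 CPM at day 26 in KPC mice, against 141 to 216 CPM in controls. For both genes all 6 later KPC libraries lay above all day 14 and all control libraries. The slopes were 1.2 ± 0.18 for Il6ra and 1.02 ± 0.16 for Stat3 (edgeR adjusted p 0.0043 each), higher than in controls by 1.13 ± 0.22 (edgeR adjusted p 0.0087) and 1.05 ± 0.18 (edgeR adjusted p 0.005). Both held with any library left out.

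The feedback inhibitors rose further. Cish (chromosome 9, 107296026 to 107302784), an inhibitor of cytokine receptors that signal through STAT5 and not a member of the list, had 1.63, 2.03, 0.898 and 2.42 CPM at day 14, 17.3, 13.7 and 13.6 CPM at day 21 and 80.7, 47.5 and 1.26 CPM at day 26 in KPC mice, against 0.614 to 6.35 CPM in the 10 control libraries. The 3 day 21 libraries were close to each other and above every control, and day 26 replicate 3 was back at the day 14 level. Its slope was 2.73 ± 0.54 in KPC (edgeR adjusted p 0.0095) and -0.81 ± 0.28 in controls, a difference of 3.53 ± 0.65 (edgeR adjusted p 0.0075). Both calls held with any library left out and were lost with limma-voom, for the slope at 1.77 (limma adjusted p 0.159, between 2.2e-06 and 0.16 over all settings) and for the difference at 2.65 (limma adjusted p 0.0642, between 2.4e-06 and 0.064 over all settings). Socs3 had 494, 536, 364 and 1009 CPM at day 14, 1861, 1896 and 1562 CPM at day 21 and 7598, 5846 and 1599 CPM at day 26 in KPC mice. In controls Socs3 had 581, 447 and 396 CPM at day 14, 446, 534 and 358 CPM at day 21 and 1697, 1574, 1172 and 989 CPM at day 26. Socs3 thus climbed in both arms, by 1.78 ± 0.27 in KPC (edgeR adjusted p 0.0043) and 0.89 ± 0.23 in controls (edgeR adjusted p 0.03), and the difference did not pass the test (0.88 ± 0.34, edgeR adjusted p 0.089).

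Cebpb, a transcription factor of the acute phase whose exons overlap Tmem189 on the other strand, was one of the steadiest. Cebpb had 101, 130.5, 89.4 and 153 CPM at day 14, 245, 293 and 339.5 CPM at day 21 and 488, 715 and 276 CPM at day 26 in KPC mice, against 79 to 216 CPM in the 10 control libraries. All later KPC libraries lay above all others, and the slope was 1.23 ± 0.17 (edgeR adjusted p 0.0039), higher than in controls by 1.53 ± 0.25 (edgeR adjusted p 0.0048). The secreted targets were more uneven. Serpina3n, a secreted protease inhibitor, had 134, 74.6, 106 and 138 CPM at day 14, 462, 1054 and 617 CPM at day 21 and 1721, 1436 and 347 CPM at day 26 in KPC mice, against 75.7 to 228 CPM in controls, and rose by 2.08 ± 0.33 (edgeR adjusted p 0.0053). Lcn2, the iron-siderophore binding protein lipocalin 2, had 2.75, 1.33, 1.2 and 1.83 CPM at day 14, 17.7, 22 and 11.8 CPM at day 21 and 98.6, 13.6 and 6.92 CPM at day 26 in KPC mice, against 0.664 to 3.71 CPM in controls, and rose by 2.67 ± 0.50 (edgeR adjusted p 0.0083). In both genes all later KPC libraries lay above every day 14 and control library, but Lcn2 was led by day 26 replicate 1 alone.

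The same library led the serum amyloid genes, whose products are classical acute-phase proteins. Saa1 had 0.677, 0.742, 0.673 and 0.357 CPM at day 14, 0.674, 8.18 and 2.77 CPM at day 21 and 109, 8.54 and 1.06 CPM at day 26 in KPC mice, against 0.149 to 1.34 CPM in the 10 control libraries. Without day 26 replicate 1 its slope of 3.54 ± 0.74 (edgeR adjusted p 0.011) was no longer called (edgeR adjusted p 0.054, between 4.3e-05 and 0.1 over all settings). That library also carried more macrophage transcript: the summed level of the 16 macrophage markers was 520 CPM there, 51.7 and 28.1 CPM in the other 2 day 26 libraries, 27.6 to 115 CPM at day 21, 25.4 to 57.1 CPM at day 14 and 17.5 to 33.6 CPM in controls. Its 9 neutrophil markers summed to 106 CPM, against 0.602 to 16.7 CPM in controls, and none of the markers in either list was at 0 in it. The part of these cells in the rise of the acute-phase genes was not tested.

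The promoter of Cish is shown because Cish was the steepest of the cytokine feedback genes and holds paired copies of the letters that STAT dimers are known to bind. Promoters of Mt1 and Mt2, neighbours on chromosome 8 that rose together, are shown for the core letters of the metal response element. Windows run from 250 bases before to 50 after the RefSeq start (GRCm38.p6, plus strand), with matches on either strand in capitals: TTCNNNGAA in Cish (chr9:107296409-107296708), TGCACNC in Mt1 (chr8:94178839-94179138) and Mt2 (chr8:94172368-94172667).
Cish: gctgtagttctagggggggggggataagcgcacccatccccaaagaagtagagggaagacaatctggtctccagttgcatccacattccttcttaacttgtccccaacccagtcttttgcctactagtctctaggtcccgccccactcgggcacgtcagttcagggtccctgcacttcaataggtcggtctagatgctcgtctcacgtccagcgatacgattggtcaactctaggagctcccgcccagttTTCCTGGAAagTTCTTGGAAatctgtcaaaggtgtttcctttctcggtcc
Mt1: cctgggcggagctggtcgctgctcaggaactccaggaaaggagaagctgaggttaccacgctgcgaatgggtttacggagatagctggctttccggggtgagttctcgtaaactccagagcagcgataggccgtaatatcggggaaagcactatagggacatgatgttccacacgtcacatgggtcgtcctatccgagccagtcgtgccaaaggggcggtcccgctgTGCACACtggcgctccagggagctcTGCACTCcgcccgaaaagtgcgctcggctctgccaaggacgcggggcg
Mt2: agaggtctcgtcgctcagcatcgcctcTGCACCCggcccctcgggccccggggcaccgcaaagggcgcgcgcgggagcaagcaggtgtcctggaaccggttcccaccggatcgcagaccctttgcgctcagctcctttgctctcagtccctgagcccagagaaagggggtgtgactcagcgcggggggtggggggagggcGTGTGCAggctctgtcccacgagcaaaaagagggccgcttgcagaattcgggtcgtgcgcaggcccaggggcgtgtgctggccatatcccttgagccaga
In Cish the matches began at 1 and 12 bases from the RefSeq start. GENCODE vM21 places the gene from 107296026, before the whole window, so the annotations differ on its start. By GENCODE both matches lie inside the gene. In Mt1 they began at -23 and 3, and in Mt2 at -223 and, on the other strand, at -50. The letters TTCNNNGAA were present in 2 of 24 promoters of the interleukin-6 and STAT3 list (8.33%), those of Serpina3g and Socs3, and in 2582 of 27025 promoters of all genes (9.55%). TGCACNC was present in 5 of 7 promoters of the metallothionein and zinc list (71.4%) and in 3839 of all 27025 (14.2%). A match describes letters in this window and is not a bound site.

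Mt1 and Mt2 encode the metal-binding metallothioneins, induced by zinc, glucocorticoids and STAT3. Mt1 had 182, 216, 94.4 and 313 CPM at day 14, 524, 762 and 634 CPM at day 21 and 4229, 2684 and 777 CPM at day 26 in KPC mice, against 168 to 478 CPM in the 10 control libraries. Mt2 had 194, 233, 112 and 361 CPM at day 14, 787, 1070 and 901 CPM at day 21 and 5014, 3231 and 1228 CPM at day 26 in KPC mice, against 217 to 738 CPM in controls. In both genes every later KPC library, the third of day 26 included, exceeded every day 14 and control library. The slopes were 2.12 ± 0.30 for Mt1 (edgeR adjusted p 0.0043) and 2.22 ± 0.26 for Mt2 (edgeR adjusted p 0.0029), higher than in controls by 2.16 ± 0.37 (edgeR adjusted p 0.0064) and 2.08 ± 0.37 (edgeR adjusted p 0.007). They were the 2 of 8 members of the metallothionein and zinc list that rose, beside 11.8% of all genes, and 1 member fell, with a median slope of 0.361. Without day 26 replicate 3, 4 rose, beside 17.6% of all genes in that fit, and without day 26 replicate 2, 2 fell.

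The glucocorticoid list, which includes both metallothioneins, rose broadly. Of its 23 tested members 17 rose and 1 fell in KPC, beside 11.8% and 6.17% of all genes. The median slope was 1.12 log2 per week. In controls 1 rose and 3 fell, beside 5.77% and 9.66% of all genes there, with a median of -0.0673. The slope was higher in KPC for 17 members and lower for 1, beside 7.72% and 4.12% of all genes. Zbtb16, a zinc finger transcription factor induced strongly by these hormones, had 48.4, 34, 152 and 51.3 CPM at day 14, 357, 229 and 120.2 CPM at day 21 and 754, 1193 and 262 CPM at day 26 in KPC mice. In controls Zbtb16 had 231, 74.9 and 60.9 CPM at day 14, 71.8, 78.2 and 102 CPM at day 21 and 56.5, 94.2, 93.5 and 88.2 CPM at day 26. The day 26 KPC libraries all lay above all controls, whereas day 14 replicate 3 overlapped the day 21 range. Its slope was 1.96 ± 0.35 (edgeR adjusted p 0.0073), higher than in controls by 2.27 ± 0.45 (edgeR adjusted p 0.0094).

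Fkbp5, a chaperone of the steroid receptor and a common readout of these hormones, had 97.4, 59.8, 170.5 and 55.8 CPM at day 14, 188, 169.6 and 80.9 CPM at day 21 and 437, 515 and 169.9 CPM at day 26 in KPC mice. In controls Fkbp5 had 308, 93 and 105 CPM at day 14 and 75.6 to 115 CPM at the later days. The KPC days overlapped, and its slope of 1.12 ± 0.27 (edgeR adjusted p 0.02) was not called without day 14 replicate 1 or 2 or day 26 replicate 1 or 2 (edgeR adjusted p 0.056, 0.057, 0.05 and 0.085, between 0.00043 and 0.099 over all settings). Pdk4, a kinase that turns off pyruvate oxidation and is induced by fasting, had 12.6, 20.8, 22.1 and 25.7 CPM at day 14, 58.5, 144 and 108 CPM at day 21 and 162, 342 and 31.8 CPM at day 26 in KPC mice, against 14.2 to 33.5 CPM in controls. Among the later KPC libraries, all but the third of day 26 stood above every control. Its slope was 1.91 ± 0.39 (edgeR adjusted p 0.01; without day 26 replicate 2, 0.057, between 3.3e-05 and 0.057 over all settings), and it differed from controls by 2.26 ± 0.42 (edgeR adjusted p 0.0083).

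Immediate-early genes, which cells switch on within minutes of a stimulus and of handling, rose in both arms. Of the 24 tested members 20 rose in KPC, beside 11.8% of all genes, with a median slope of 1.07. In controls 12 rose, beside 5.77% of all genes, with a median of 0.501. Fos showed the shared course. Fos had 881, 1019, 745 and 1829 CPM at day 14, 4558, 4343 and 4278 CPM at day 21 and 3093, 4133 and 4116 CPM at day 26 in KPC mice. In controls Fos had 687, 599 and 560.4 CPM at day 14, 1481, 1585 and 1386 CPM at day 21 and 2882, 2837, 2241 and 2072 CPM at day 26. The slope was 1.19 ± 0.28 in KPC (edgeR adjusted p 0.015) and 1.19 ± 0.08 in controls (edgeR adjusted p 8.6e-07), a difference of -0.02 ± 0.28 (edgeR adjusted p 0.97). The KPC call was lost without day 14 replicate 1 or 2 (edgeR adjusted p 0.058 and 0.053, between 8.7e-06 and 0.058 over all settings).

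For 6 members of the immediate-early list the slope was higher in KPC, beside 7.72% of all genes. This count was 2 without KPC day 26 replicate 1 or without control day 14 replicate 1 or 3, 3 without KPC day 26 replicate 2 and 10 without KPC day 14 replicate 4. It was 13 without KPC day 26 replicate 3, where 15.5% of all genes had a higher slope. Myc, a driver of ribosome synthesis and growth, was one of them, and had 85.5, 116, 58.6 and 161 CPM at day 14, 337, 361 and 330.1 CPM at day 21 and 1142, 940.4 and 329 CPM at day 26 in KPC mice, against 88.5 to 291 CPM in controls. Maff, a small partner of stress-response factors, had 22.2, 31.3, 21.1 and 33.4 CPM at day 14, 62.1, 83 and 82.7 CPM at day 21 and 179, 188 and 66.6 CPM at day 26 in KPC mice, against 28.8 to 76.5 CPM in controls. Myc lay above every control in all later KPC libraries, and Maff in 4 of the 6. The slopes were 1.73 ± 0.23 for Myc and 1.44 ± 0.18 for Maff (edgeR adjusted p 0.0039 each), higher than in controls by 1.45 ± 0.34 (edgeR adjusted p 0.015) and 1.43 ± 0.29 (edgeR adjusted p 0.0096). Both held with any library left out.

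Clock genes were tested for the same slopes. Of 19 tested clock genes 9 rose and 1 fell in KPC, beside 11.8% and 6.17% of all genes, with a median slope of 0.786. The rising count ran from 6 (without day 26 replicate 2) to 12 (without day 26 replicate 3, where 17.6% of all genes rose). In controls 1 rose and 5 fell, beside 5.77% and 9.66% of all genes there, with a median of -0.133. The slope was higher in KPC for 10 and lower for 1, beside 7.72% and 4.12% of all genes. The hour at which mice were sampled is not given in the sources used here, and its part in these levels was not tested. Nr1d1, the repressor REV-ERBα, whose exons overlap Thra on the other strand, had 64.3, 51.1, 91.3 and 73 CPM at day 14, 95.6, 119 and 64 CPM at day 21 and 192, 425 and 181 CPM at day 26 in KPC mice. In controls Nr1d1 had 223, 145 and 104 CPM at day 14, 119, 124 and 138 CPM at day 21 and 18.7, 61, 44.7 and 51.7 CPM at day 26. The KPC libraries were all below the controls at day 14 and all above them at day 26.

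The Nr1d1 slope was 1.09 ± 0.21 in KPC (edgeR adjusted p 0.0088) and -1.05 ± 0.30 in controls (edgeR adjusted p 0.049), a difference of 2.12 ± 0.37 (edgeR adjusted p 0.0069). Per1, a clock repressor that also answers glucocorticoids, had 70.5, 157, 166 and 142 CPM at day 14, 215, 244 and 277 CPM at day 21 and 389.7, 657 and 314 CPM at day 26 in KPC mice, against 97.7 to 269 CPM in controls. Its KPC groups did not overlap, and it rose by 1.03 ± 0.17 (edgeR adjusted p 0.0053), more than in controls by 1.31 ± 0.26 (edgeR adjusted p 0.0093). Cry2, a partner of the period proteins whose exons overlap D930015M05Rik on the other strand, had 51.8, 55.2, 62.2 and 67.4 CPM at day 14, 60.5, 98.5 and 85.1 CPM at day 21 and 267, 376 and 109.7 CPM at day 26 in KPC mice, against 66.6 to 91 CPM in controls. Cry2 was above every control in all day 26 KPC libraries, with a slope of 1.17 ± 0.22 (edgeR adjusted p 0.0083). Nfil3, a repressor of clock output genes, rose by 1.22 ± 0.20 (edgeR adjusted p 0.0053), more than in controls by 0.97 ± 0.28 (edgeR adjusted p 0.034). That difference was called in 11 of 20 fits with a library left out, and was lost without KPC day 14 replicate 1, 2 or 3, KPC day 26 replicate 1 or 2, any control day 14 library or control day 26 replicate 4 (edgeR adjusted p between 0.0016 and 0.11 over all settings).

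Genes of breakdown and growth arrest rose to a smaller extent. In the autophagy and FoxO list 9 of 21 members rose and 1 fell in KPC, beside 11.8% and 6.17% of all genes. The median slope was 0.365, and in controls 3 fell, beside 9.66% of all genes there. The count of rising members was 5 without day 14 replicate 1, 2 or 3 and 4 without day 26 replicate 2. Foxo3, a transcription factor that drives atrophy genes, had 18.5, 20.2, 34.8 and 24.8 CPM at day 14, 61, 35.7 and 50.5 CPM at day 21 and 109, 156 and 51 CPM at day 26 in KPC mice, against 16.6 to 44.5 CPM in controls. Its KPC levels at day 14 stayed below those of the later days, and the slope of 1.23 ± 0.20 (edgeR adjusted p 0.0053) was higher than in controls by 0.90 ± 0.26 (edgeR adjusted p 0.032). The difference was lost without KPC day 14 replicate 1 or 2, KPC day 26 replicate 1 or 2, control day 14 replicate 1 or control day 26 replicate 1 or 4 (edgeR adjusted p between 0.0022 and 0.11 over all settings). Bnip3, a mitochondrial receptor for autophagy, had 18.8, 12.1, 8.08 and 23.1 CPM at day 14, 23.5, 79.4 and 54.8 CPM at day 21 and 115, 160.1 and 21.4 CPM at day 26 in KPC mice, against 11.2 to 22.8 CPM in controls. Day 26 replicate 3 lay within the control range. Bnip3 rose by 1.59 ± 0.36 in KPC (edgeR adjusted p 0.015; without day 26 replicate 2, 0.071, between 1.5e-05 and 0.071 over all settings) and fell by 0.43 ± 0.09 in controls (edgeR adjusted p 0.0059), a difference of 2.00 ± 0.39 (edgeR adjusted p 0.0093).

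In the p53 and senescence list 9 of 18 members rose and 2 fell in KPC, beside 11.8% and 6.17% of all genes. The median slope was 0.433, and 2 members fell in controls, beside 9.66% of all genes there. The falling count in KPC was 1 without day 14 replicate 1, 2 or 3, day 21 replicate 3 or day 26 replicate 1 or 2. Thbs1, a matricellular protein that releases TGF-beta from its latent form, had 154, 186, 137 and 249 CPM at day 14, 369.9, 822 and 989 CPM at day 21 and 4539, 3451 and 424 CPM at day 26 in KPC mice. Controls lay at 750.2, 145 and 449 CPM at day 14 and between 151 and 182 CPM later, so Thbs1 in control day 14 overlapped KPC day 21. Thbs1 rose by 2.29 ± 0.36 (edgeR adjusted p 0.0053), more than in controls by 3.05 ± 0.46 (edgeR adjusted p 0.0042), and both calls held with any library left out. Gdf15, a hormone that lowers appetite, had 0.226, 1.04, 0.673 and 0.635 CPM at day 14, 0.83, 1.53 and 0.876 CPM at day 21 and 12.1, 6.18 and 0.505 CPM at day 26 in KPC mice, against 0.12 to 1.83 CPM in controls. The first and second day 26 libraries carried its slope of 1.87 ± 0.48 (edgeR adjusted p 0.02), which was not called without day 14 replicate 1 or day 26 replicate 1 or 2 (edgeR adjusted p 0.063, 0.096 and 0.058, between 0.0016 and 0.11 over all settings).

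Falling genes included a set made by tendon and cartilage-like stroma. Cilp2 (chromosome 8, 69880369 to 69887687), a cartilage matrix protein, had 58.4, 21.8, 25.6 and 18.8 CPM at day 14, 6.89, 3.26 and 6.33 CPM at day 21 and 0.559, 1.12 and 2.17 CPM at day 26 in KPC mice. In controls Cilp2 had 13.5, 8.82 and 9.23 CPM at day 14, 5.83, 11.9 and 4.5 CPM at day 21 and 7.28, 5.51, 5.68 and 19.5 CPM at day 26. The KPC days did not overlap, day 14 lay above every control of that day, and all day 26 libraries, the third included, lay below every control. The slope was -2.62 ± 0.29 (edgeR adjusted p 0.0029) in KPC and -0.09 ± 0.28 in controls, a difference of -2.55 ± 0.43 (edgeR adjusted p 0.0054). Col11a1, a collagen of cartilage and tendon, fell by 1.89 ± 0.38 log2 per week (edgeR adjusted p 0.0089), with 5.24 to 15.3 CPM at day 14, 1.97 to 4.53 CPM at day 21 and 0.118 to 1.67 CPM at day 26 in KPC mice, against 0.794 to 4.87 CPM in controls. Both slopes stayed called with any KPC library left out, and that of Col11a1 had a limma adjusted p of 0.0508 with limma-voom (between 9.2e-06 and 0.051 over all settings).

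The tendon markers proper gave the same direction with less certainty. Of 9 tested members 5 fell and 1 rose in KPC, beside 6.17% and 11.8% of all genes. The median slope was -1.86 in KPC and -0.127 in controls. The count of falling members was 3 without day 14 replicate 2 or 3 and 2 without day 26 replicate 2, and no member was called without day 14 replicate 1. Tnmd, tenomodulin, had 53.2, 24.9, 30.5 and 17.1 CPM at day 14, 7.1, 6.65 and 10.2 CPM at day 21 and 0.503, 0.471 and 7.43 CPM at day 26 in KPC mice, against 6.74 to 18.6 CPM in controls. Day 14 lay above both later days, and the first and second day 26 libraries lay below every control. Its slope was -1.99 ± 0.45 (edgeR adjusted p 0.015; without day 14 replicate 1, 0.052, between 3e-05 and 0.053 over all settings).

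Fmod, fibromodulin, which regulates collagen fibril width, had 594, 257, 356 and 214 CPM at day 14, 151, 92.6 and 276 CPM at day 21 and 11.5, 18.4 and 64.2 CPM at day 26 in KPC mice, against 59.7 to 268 CPM in controls. Days 14 and 21 overlapped, and day 26 lay below both. Its slope was -1.86 ± 0.44 (edgeR adjusted p 0.018), lost without day 14 replicate 1 or day 26 replicate 2 (edgeR adjusted p 0.059 and 0.061, between 0.00024 and 0.061 over all settings). Chad, chondroadherin, fell by 2.48 ± 0.55 (edgeR adjusted p 0.014; without day 14 replicate 1, 0.051, between 0.0005 and 0.051 over all settings), with 29.1 to 97.2 CPM at day 14, 9.71 to 23.5 CPM at day 21 and 0.112, 0.471 and 6.12 CPM at day 26 in KPC mice, against 5.34 to 45.3 CPM in controls.

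The member that rose was Prg4, lubricin, whose exons overlap Tpr on the other strand. Prg4 had 387, 274, 463 and 313 CPM at day 14, 250, 847 and 701 CPM at day 21 and 2456, 2036 and 413 CPM at day 26 in KPC mice, against 206 to 634 CPM in controls. Its days overlapped through day 21 replicate 1 and day 26 replicate 3. The slope of 1.25 ± 0.31 (edgeR adjusted p 0.02) was not called without day 14 replicate 1 or 2 or day 26 replicate 1 or 2 (edgeR adjusted p 0.054, 0.056, 0.062 and 0.078, between 0.0018 and 0.1 over all settings). The summed level of the 9 tendon markers, which Prg4 enters, was 1140 to 2280 CPM at day 14, 960 to 1860 CPM at day 21 and 3030, 3110 and 927 CPM at day 26 in KPC libraries, and 715 to 1880 CPM in controls, so the sum did not fall with its 5 falling members. Of these markers up to 2 were at 0 in a KPC library of day 26, Kera among them. The part of tendon cells in these falls was not tested.

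**Figure D3:**
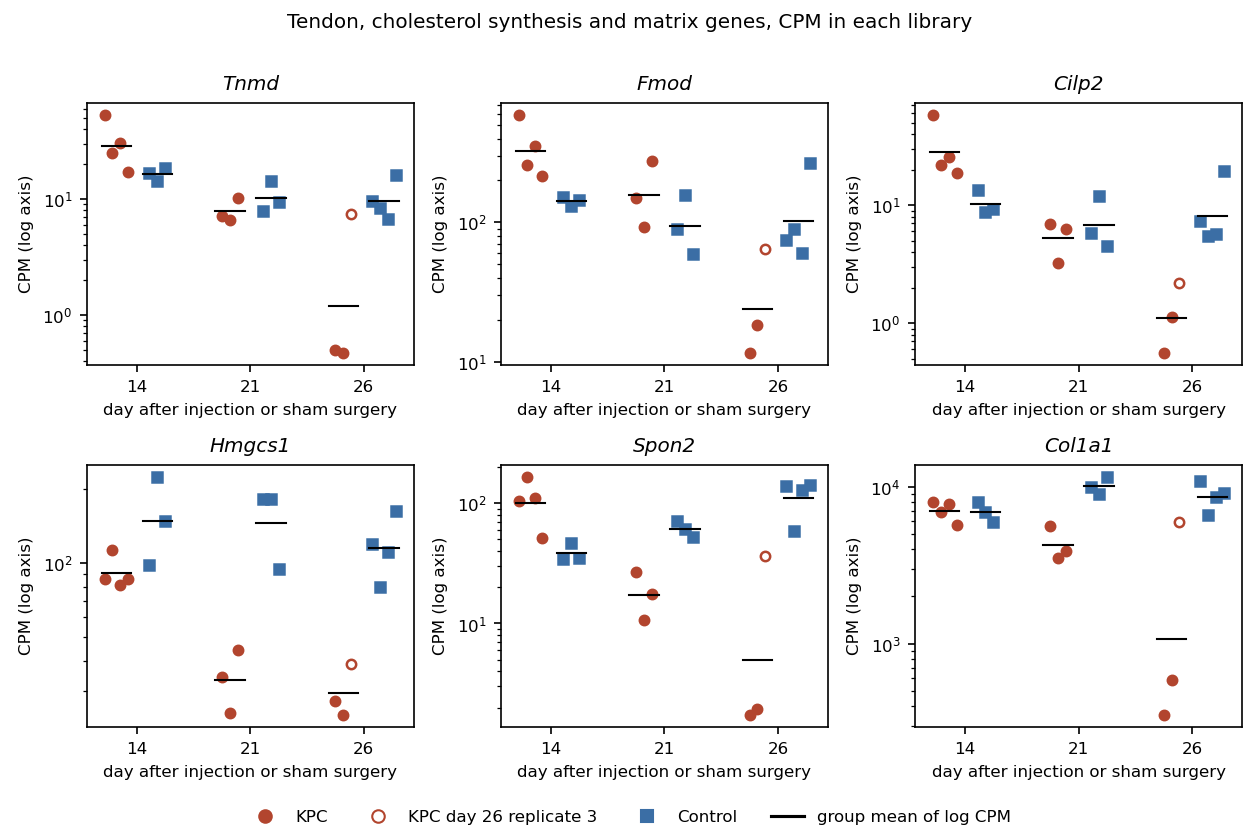
Levels in CPM (log axis) of Tnmd, Fmod, Cilp2, Hmgcs1, Spon2 and Col1a1 in each of the 20 libraries by day; circles are KPC libraries, squares controls, the open circle KPC day 26 replicate 3, and bars the group means of the log values. Tnmd, Fmod and Cilp2 start above the controls of day 14 and fall with day in KPC, Hmgcs1 is lower at days 21 and 26 than at day 14, and for Spon2 and Col1a1 the open circle (36.5 and 5909 CPM) lies far above the other day 26 KPC libraries.

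Spon2, a secreted matrix protein of the spondin family, moved in opposite directions in the 2 arms. Spon2 had 104, 165, 111 and 51 CPM at day 14, 26.7, 10.7 and 17.5 CPM at day 21 and 1.73, 1.94 and 36.5 CPM at day 26 in KPC mice. In controls Spon2 had 34.1, 46.2 and 35.2 CPM at day 14, 70.8, 60.8 and 51.8 CPM at day 21 and 140, 58.3, 127 and 141 CPM at day 26. At day 14 every KPC library was above every control, and at days 21 and 26 every KPC library was below every control of its day. The slopes were -1.80 ± 0.51 in KPC (edgeR adjusted p 0.033) and 0.94 ± 0.16 in controls (edgeR adjusted p 0.0047), and their difference of -2.76 ± 0.58 (edgeR adjusted p 0.012) stayed called with any of the 20 libraries left out. The KPC slope taken by itself stayed called in 3 of 10 such fits (edgeR adjusted p between 0.00032 and 0.083 over all settings), being lost without day 14 replicates 1, 2 or 3, day 21 replicates 1 or 3, or day 26 replicates 1 or 2.

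Genes of cholesterol synthesis fell in part. Of 20 tested genes of that pathway 8 fell over the days in KPC, beside 6.17% of all genes, and 12 did not pass the test, with a median slope of -0.533. By step, the median was -0.93 from day 14 to day 21 and 0.00583 from day 21 to day 26, where 2 of the 20 genes were called at the first step. In controls 2 fell, beside 9.66% of all genes there, with a median of -0.179. The slope was lower in KPC for 2 members, beside 4.12% of all genes. Without day 26 replicate 3 of KPC, 15 fell and 11 had a lower slope in KPC, beside 15.4% and 15.2% of all genes in those fits. The difference lost all its members without KPC day 14 replicate 1, KPC day 26 replicate 1 or 2, or control day 14 replicate 1 or 3 or day 26 replicate 4. It held 1 member without KPC day 14 replicate 2 or control day 26 replicate 3, and 6 without control day 26 replicate 2.

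Hmgcs1 (chromosome 13, 119690379 to 119708260), the enzyme that makes the precursor of mevalonate, had 86.1, 112, 81 and 86.2 CPM at day 14, 34.5, 24.6 and 44.1 CPM at day 21 and 27.4, 24 and 39 CPM at day 26 in KPC mice, against 79.8 to 224 CPM in the 10 control libraries. Sqle, squalene epoxidase, had 31.5, 36.8, 37 and 19.1 CPM at day 14, 6.53, 8.95 and 9.98 CPM at day 21 and 8.38, 5.18 and 12.8 CPM at day 26 in KPC mice, against 27.2 to 80.4 CPM in controls. Msmo1, a sterol demethylation enzyme, had 33.6, 49.6, 28.4 and 33.8 CPM at day 14, 10.7, 13.2 and 15.6 CPM at day 21 and 6.82, 6.89 and 14.4 CPM at day 26 in KPC mice, against 27.6 to 79.7 CPM in controls. In all 3 genes every later KPC library, day 26 replicate 3 included, lay below every day 14 KPC library and below every control. The slopes were -0.96 ± 0.15 for Hmgcs1 (edgeR adjusted p 0.0043), -1.11 ± 0.22 for Sqle (edgeR adjusted p 0.0084) and -1.15 ± 0.17 for Msmo1 (edgeR adjusted p 0.0043). The step from day 14 to day 21 was called for Hmgcs1 (log2 -1.39, edgeR adjusted p 0.039) and Sqle (log2 -1.85, edgeR adjusted p 0.048), in a contrast whose calls fell to between 1 and 5 genes when a single library of those days was left out. The difference from controls passed for Msmo1 (-0.92 ± 0.27, edgeR adjusted p 0.035, between 0.0023 and 0.093 over all settings, and called in 12 of 20 fits with a library left out) and not for Sqle (-0.93 ± 0.30, edgeR adjusted p 0.053) or Hmgcs1 (-0.74 ± 0.25, edgeR adjusted p 0.057). The sterol response letters TCACCCCAC were present in 1 of 14 promoters of the list (7.14%), that of Hmgcs1, and in 166 of 27025 of all genes (0.614%).

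Counts for collagen and fibrillar matrix genes depended on the third day 26 library. Of 31 tested members 4 fell and 1, Thbs1, rose in KPC, beside 6.17% and 11.8% of all genes, with a median slope of -0.561. In controls 8 rose, beside 5.77% of all genes, with a median of 0.182. For 5 members the slope was lower in KPC, beside 4.12% of all genes. Without KPC day 26 replicate 3, 17 fell and 19 had a lower slope, beside 15.4% and 15.2% of all genes in those fits. The median of the list was then -1.12. The count with a lower slope was 3 without KPC day 14 replicate 1, KPC day 26 replicate 2, any control day 14 library or control day 26 replicate 4. The count of falling members was 1 without day 14 replicate 4, day 21 replicate 2 or 3 or day 26 replicate 1, and no member fell without day 14 replicate 1, 2 or 3 or day 26 replicate 2. Col1a1, the main chain of type I collagen, had 7968, 6903, 7771 and 5672 CPM at day 14, 5635, 3485 and 3876 CPM at day 21 and 350.1, 584 and 5909 CPM at day 26 in KPC mice, against 5938 to 11530 CPM in controls. The first and second day 26 libraries were more than 5 times lower than any other, and the third stood within the day 14 range.

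The Col1a1 slope did not pass the test with all libraries (-0.90 ± 0.44, edgeR adjusted p 0.17), and without day 26 replicate 3 it did (-1.75, edgeR adjusted p 0.011, between 0.011 and 0.33 over all settings). Eln, elastin, had 663, 898, 1185 and 391 CPM at day 14, 379, 217 and 268 CPM at day 21 and 128, 134 and 431 CPM at day 26 in KPC mice, against 415 to 969 CPM in controls. All day 21 and the first and second day 26 libraries lay below every control. Eln fell by 1.04 ± 0.27 log2 per week (edgeR adjusted p 0.023), a call lost without day 14 replicate 1, 2 or 3 or day 26 replicate 1 or 2 (edgeR adjusted p 0.051, 0.06, 0.063, 0.064 and 0.073, between 0.00039 and 0.073 over all settings). Its difference from controls (-1.38 ± 0.34, edgeR adjusted p 0.017) stayed called with any library left out.

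Markers of the Dpp4/Pi16-type progenitor state, cells thought to sit upstream of other fibroblasts, were mostly not called. Of 17 tested members 2 rose in KPC, beside 11.8% of all genes, and 15 did not pass the test, with a median slope of -0.499. In controls 5 rose, beside 5.77% of all genes there, with a median of 0.184. Without KPC day 26 replicate 3, 9 fell and 11 had a lower slope in KPC, beside 15.4% and 15.2% of all genes in those fits. The rising count was 1 without day 14 replicate 1, 2 or 4, day 21 replicate 3 or day 26 replicate 2. Pi16 had 1512, 1971, 1828 and 1819 CPM at day 14, 1916, 1242 and 1670 CPM at day 21 and 109.6, 274 and 2559 CPM at day 26 in KPC mice. In controls Pi16 had 2034, 2793 and 2670 CPM at day 14, 4072, 3473 and 4019 CPM at day 21 and 3961, 3752, 3600 and 3266 CPM at day 26. At days 14 and 21 every KPC library lay below every control of its day, and at day 26 the third KPC library had the most Pi16 of all KPC libraries while the other 2 had the least. The slope did not pass the test (-0.43 ± 0.47, edgeR adjusted p 0.54; 0.084 without that library, between 0.084 and 0.82 over all settings).

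Some genes were highest at day 21 in KPC, or had a called first step and an uncalled last one. An uncalled last step does not show that a level stayed the same, since 1 gene was called there. Calls of the first step fell to between 1 and 5 genes without any single library of days 14 and 21. With the replicate block they fell to 0. C4b, the complement component C4, which has a close copy in the mouse, had 514, 343, 468 and 529 CPM at day 14, 2045, 3693 and 2718 CPM at day 21 and 1814, 1913 and 1545 CPM at day 26 in KPC mice, against 322 to 912 CPM in controls. All later KPC libraries, the third of day 26 included, lay above all day 14 and control libraries, and day 26 lay below day 21 in each library. The step from day 14 to day 21 was 2.63 log2 (edgeR adjusted p 0.0056) and that from day 21 to day 26 was -0.67 (edgeR adjusted p 0.33). The slope of 1.41 ± 0.39 (edgeR adjusted p 0.029) was not called without any one of the day 14 libraries (edgeR adjusted p 0.079 to 0.093, between 0.0011 and 0.12 over all settings). Chrdl1, an antagonist of bone morphogenetic proteins, was the gene called at the last step, with 55.4, 52.4, 51.8 and 60.2 CPM at day 14, 105, 119.5 and 113 CPM at day 21 and 35.2, 46 and 31.4 CPM at day 26 in KPC mice. In controls Chrdl1 had 69.7, 110.3 and 82.2 CPM at day 14, 24.5, 40 and 42 CPM at day 21 and 26.6 to 49.2 CPM at day 26. The KPC days did not overlap, and Chrdl1 rose by 1.05 (edgeR adjusted p 0.023) and then fell by 1.56 (edgeR adjusted p 0.0087) on the log2 scale. In the 6 libraries of days 21 and 26 alone the fall was of like size and not called (log2 -1.58, edgeR adjusted p 0.43). With the replicate block there it was -1.6 (edgeR adjusted p 0.544).

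Adm, the vasodilator adrenomedullin, had 90.8, 85.3, 106 and 106 CPM at day 14, 335, 1437 and 831 CPM at day 21 and 573, 1507 and 314 CPM at day 26 in KPC mice, against 82.1 to 119.6 CPM in the 10 control libraries. All later KPC libraries lay above every day 14 and control library. The first step was 3.19 log2 (edgeR adjusted p 0.048) and the second -0.11 (edgeR adjusted p 0.95). Angptl4, an inhibitor of lipoprotein lipase induced by fasting and glucocorticoids, had 29.4, 25.6, 38.5 and 45.5 CPM at day 14, 147, 351 and 201 CPM at day 21 and 62.6, 199.5 and 111 CPM at day 26 in KPC mice, against 12.1 to 86.6 CPM in controls. Day 21 lay above every control, and day 26 replicate 1 lay within their range. The first step was 2.77 log2 (edgeR adjusted p 0.032), while the slope over all days did not pass the test (1.41 ± 0.51, edgeR adjusted p 0.077), but did without day 21 replicate 2 or day 26 replicate 1 or 3 (edgeR adjusted p 0.04, 0.035 and 0.042, between 0.0083 and 0.2 over all settings).

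A set of falls was shared with sham-operated mice. Xpo1, the main exporter of proteins from the nucleus, had 90.9, 68.4, 85.4 and 96.3 CPM at day 14, 33.1, 25 and 38.3 CPM at day 21 and 34.7, 20.6 and 36.3 CPM at day 26 in KPC mice. In controls Xpo1 had 87.6, 92.5 and 87.9 CPM at day 14, 35.1, 36.5 and 38.6 CPM at day 21 and 42.7, 47.1, 41.8 and 40.9 CPM at day 26. Both arms dropped by day 21 with no overlap with day 14. The slopes were -0.89 ± 0.15 in KPC (edgeR adjusted p 0.0054) and -0.61 ± 0.11 in controls (edgeR adjusted p 0.0043), and their difference did not pass the test (-0.30 ± 0.20, edgeR adjusted p 0.32). Zfp943, a zinc finger gene, fell by 1.10 ± 0.14 in KPC (edgeR adjusted p 0.0037) and by 1.21 ± 0.14 in controls (edgeR adjusted p 0.00044). The noncoding Gt(ROSA)26Sor, whose exons overlap Thumpd3 on the other strand, fell by 1.07 ± 0.24 in KPC (edgeR adjusted p 0.012) and by 1.56 ± 0.24 in controls (edgeR adjusted p 0.0022). Neither difference passed the test (edgeR adjusted p 0.82 and 0.41).

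**Figure D4:**
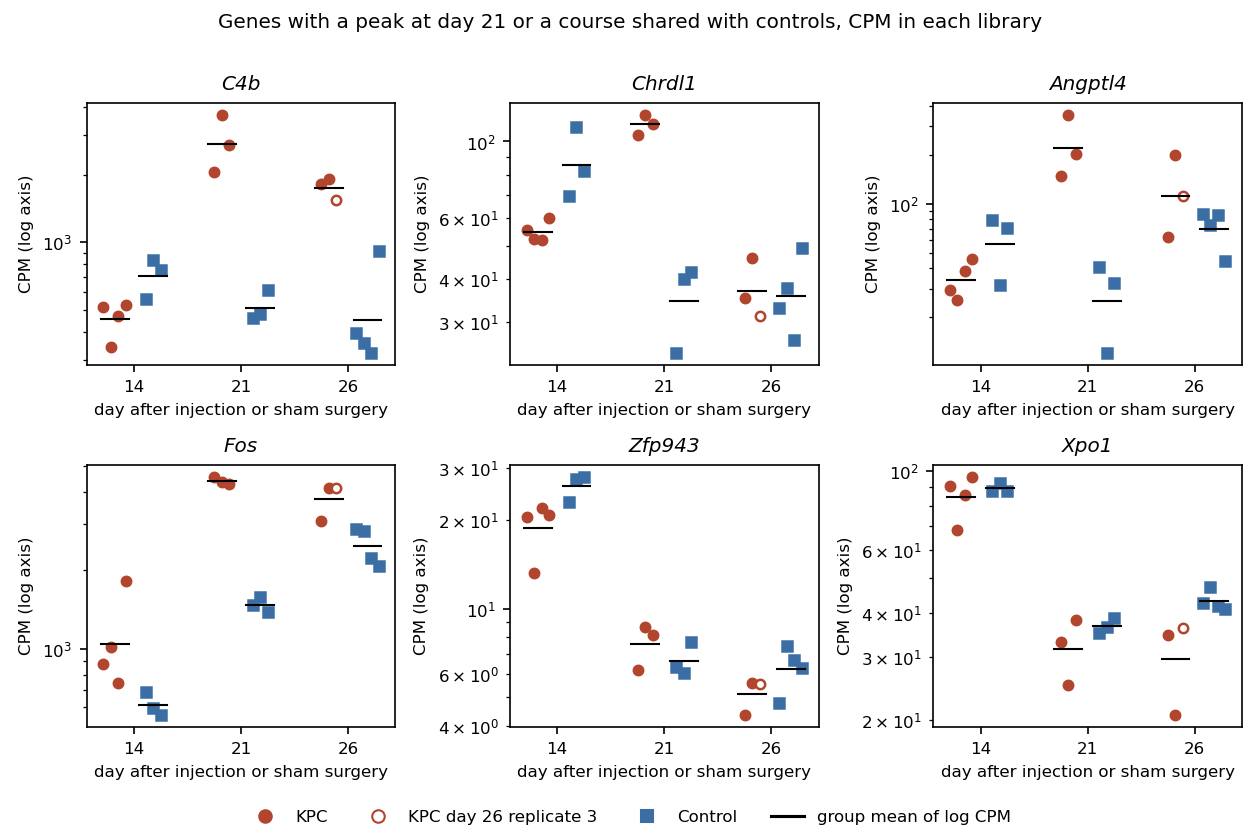
Levels in CPM (log axis) of C4b, Chrdl1, Angptl4, Fos, Zfp943 and Xpo1 in each of the 20 libraries by day; circles are KPC libraries, squares controls, the open circle KPC day 26 replicate 3, and bars the group means of the log values. C4b, Chrdl1 and Angptl4 are highest at day 21 in KPC and not in controls, whereas Fos climbs and Zfp943 and Xpo1 drop in both arms.

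Markers of other cell types were also measured. Of 15 tested macrophage markers 3 rose in KPC, beside 11.8% of all genes, with a median slope of 1.48 against 0.113 in controls. The count was 1 without any one day 14 library or without day 26 replicate 1. It was 8 without day 26 replicate 3, where 17.6% of all genes rose. Cd68, a lysosomal protein of macrophages, had 2.08, 3.36, 1.35 and 1.99 CPM at day 14, 7.77, 8.31 and 3.26 CPM at day 21 and 30.7, 19.7 and 4.9 CPM at day 26 in KPC mice, against 1.89 to 4.49 CPM in controls. It rose in the second day 26 library as well as in the first, with a slope of 1.78 ± 0.31 (edgeR adjusted p 0.0058) that held with any library left out. Cd163, a marker of resident macrophages, was carried by 1 library, with 0.599 to 1.88 CPM at day 14, 1.46 to 6.42 CPM at day 21 and 36.1, 3 and 1.01 CPM at day 26 in KPC mice, against 0.0803 to 2.21 CPM in controls. Its slope of 2.07 ± 0.57 (edgeR adjusted p 0.031) was not called without day 26 replicate 1 (edgeR adjusted p 0.32) or without any one day 14 library (edgeR adjusted p 0.054 to 0.081, between 0.00078 and 0.32 over all settings).

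Adipoq and Cfd, genes of fat cells, stood out in that same library. In the adipogenic and lipid list 6 of 24 tested members rose and 2 fell in KPC, beside 11.8% and 6.17% of all genes. The median slope of that list was 0.179, with members between -0.675 and 3.41. With a KPC library left out, 1 to 9 members rose and 1 to 2 fell. Without day 26 replicate 3, 9 members and 17.6% of all genes rose. Adipoq, adiponectin, had 0.159 to 0.544 CPM at day 14, 0.256 to 1.56 CPM at day 21 and 40.5, 0.471 and 0 CPM at day 26 in KPC mice, against 0 to 0.379 CPM in controls. Without day 26 replicate 1 its slope of 3.06 ± 0.92 (edgeR adjusted p 0.041) had an edgeR adjusted p of 0.915, the highest over all settings, where the lowest was 0.01. It stayed called in 1 of 10 such fits, the one without day 26 replicate 3. Cfd, the complement factor adipsin of fat cells, had 1.67, 3.17, 2.92 and 1.07 CPM at day 14, 4.04, 4.41 and 3.12 CPM at day 21 and 367, 16.7 and 0.253 CPM at day 26 in KPC mice. In controls Cfd had 0.759, 1.2 and 1.46 CPM at day 14 and was at 0 in 6 of the 7 later libraries. Its slope of 3.41 ± 0.87 (edgeR adjusted p 0.023) was not called without day 26 replicate 1 (edgeR adjusted p 0.2) or day 14 replicate 1, 2 or 4 (edgeR adjusted p 0.066, 0.051 and 0.056, between 0.0019 and 0.36 over all settings). Summed endothelial markers were 582 to 777 CPM at day 14, 537 to 1080 CPM at day 21 and 1220, 347 and 437 CPM at day 26 in KPC libraries, and 391 to 599 CPM in controls. Epithelial and tumour markers summed to 4.18 to 38.7 CPM in KPC libraries and 6.23 to 43.7 CPM in controls.

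Among the other lists of gene programs, the lowest median slope in KPC was -0.22, for the unfolded protein and integrated stress response, against 0.00311 over all genes. In that list 6 of 25 members rose and 3 fell, beside 11.8% and 6.17% of all genes. With a KPC library left out, 3 to 6 rose and 1 to 8 fell. The 8 fell without day 26 replicate 3, where 15.4% of all genes fell. The cytosolic ribosomal proteins had a median of 0.32, with 8 of 28 rising, beside 11.8% of all genes. This count ran from 2 (without day 26 replicate 2) to 21 (without day 26 replicate 3, where 17.6% of all genes rose). It was 3 without day 14 replicate 1, 4 without day 14 replicate 2, 3 or 4 or day 26 replicate 1, and 5 without day 21 replicate 3. Complement genes had a median step of 0.781 from day 14 to day 21 and of -0.439 from day 21 to day 26. The 20 identity genes of these progenitors had slopes between -0.85 and 0.704, with a median of -0.108. Of them 1, Itgb1, fell, beside 6.17% of all genes. The falling count was 6 without day 26 replicate 3, where 15.4% of all genes fell. The call of Itgb1 was lost without any other KPC library.

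**Figure D5:**
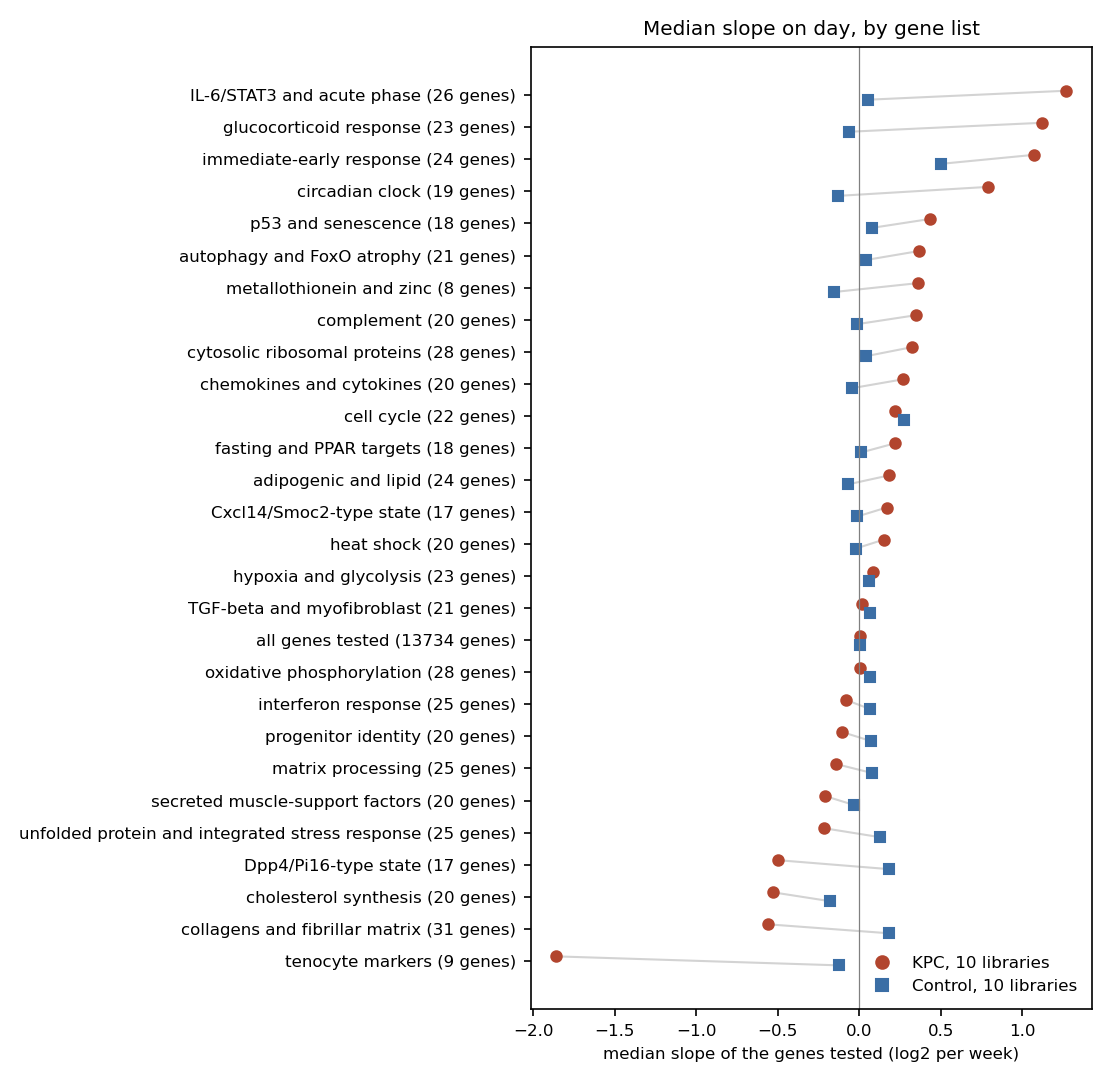
Median slope on day (log2 per week) of the tested genes of each list in the 10 KPC libraries (circles) and the 10 control libraries (squares), with the number of genes tested in KPC; lines join the values of a list. The interleukin-6 and STAT3 list (1.27), the glucocorticoid list (1.12), the immediate-early list (1.07) and the clock list (0.786) lie highest in KPC among the lists plotted, and the tendon markers (-1.86) lowest; the other cell marker lists are not plotted.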

How the data were processed

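Sorted progenitors were sequenced as stranded, paired 59-base messenger RNA reads from RNA with a RIN of 7 or more, per the labels' protocols. The authors deposited counts per gene symbol in 1 table per day. The submitters' processing notes name bcl2fastq 2.20, Bowtie, STAR, DESeq2 1.36.0, R 4.2.1 and mm10, while the counting program, its strand setting and its annotation were not given in the sources used here. Of 24419, 24419 and 24421 symbols, 24394 were shared and kept. In the tables of days 14 and 21, 25 symbols had been turned into dates and were left out.

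The deposited counts were tested with edgeR 4.0.16 (R 4.3.3; quasi-likelihood, robust, TMM scaling, filterByExpr with a minimum count of 10 and a total of 15), with Benjamini-Hochberg adjustment over all genes tested and calls at 0.05. The slope on day was fitted over the 10 libraries of an arm, and its difference between arms over all 20. Each CPM value used 1 TMM scaling over the 20 libraries. Alternatives were DESeq2 1.42.0, limma 3.58.1 (voom with quality weights), other scalings, no filter, a replicate block, the mean level of the endothelial markers as a covariate and leaving out each library. Deviations from the group means correlated at 0.19, 0.24 and 0.19 between same-numbered libraries of days 21 and 26, and these were also fitted as pairs. Same-numbered libraries of day 14 and a later day correlated at -0.19 to 0.043. Differently numbered libraries of different days correlated at -0.33 to 0.24 (between days 21 and 26, -0.33 to 0.13), so a pairing by number was not shown. No label states such pairing. The code was tested on simulated data. Between replicates, counts differed by a chi-square of 12.1 to 383 per degree of freedom, which cannot show whether libraries come from separate mice. Every library was counted as a separate sample, as the labels call the replicates biological. Total counts limit precision most for genes near 1 CPM.

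Members and gene lists were chosen with earlier results of these data known. Genes were named as those with the steepest slopes or steps among called genes and as members of the lists; not all are printed. Fkbp5, Fos, Col1a1, Pi16, Stat3, Il6ra, Prg4, Zbtb16, Apod, Cd34, Dpt and other list members were singled out after their values were seen. Of 74 genes examined singly, 10 share exon sequence with another gene in GENCODE vM21, and without a stated strand setting reads of such pairs cannot be told apart. 1 gene of the lists is not reported here. Close copies make C4b, Saa1, Saa3 and Serpina3n uncertain.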

Additional observations from a re-analysis of the deposited data

Results flagged for a closer look

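Among 74 genes in the groups of 4 libraries, 148 combinations of gene and group were looked at for a library far from the other 3. Of these, 17 were flagged. The cut-off gives about 1 in 20 for independent, normally distributed values. The genes were chosen with results of these data known, so the 17 cannot be read against that rate. The highest library stood apart in KPC mice for Saa3 in KPC day 14 replicate 4 (0.596 CPM), Hmgcs1 in KPC day 14 replicate 2 (112 CPM) and Zbtb16 in KPC day 14 replicate 3 (152 CPM). The highest library stood apart in control mice for Cfd in control day 26 replicate 2 (0.0992 CPM), Chchd10 in control day 26 replicate 2 (0.992 CPM), Cish in control day 26 replicate 4 (2.65 CPM), Cilp2 in control day 26 replicate 4 (19.5 CPM), Col11a1 in control day 26 replicate 4 (4.87 CPM), Fmod in control day 26 replicate 4 (268 CPM), Thbs1 in control day 26 replicate 2 (182 CPM), C4b in control day 26 replicate 4 (912 CPM), Il6ra in control day 26 replicate 2 (53.2 CPM) and Prg4 in control day 26 replicate 4 (634 CPM). The lowest library stood apart in KPC mice for Cdo1 in KPC day 14 replicate 3 (0.973 CPM) and Zfp943 in KPC day 14 replicate 2 (13.2 CPM). The lowest library stood apart in control mice for Spon2 in control day 26 replicate 2 (58.3 CPM) and Zbtb16 in control day 26 replicate 1 (56.5 CPM). The rule sets the gap against the range of the group, so a flag can mark a small difference. The other control day 26 libraries had 178 to 179 CPM for Thbs1 and 0 CPM for Cfd.

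The slope on day differed between KPC and control mice for 45 of these genes, by the edgeR test of the difference itself over all 20 libraries. The difference, KPC minus control in log2 per week, was positive for Cfd (7.7), Saa1 (3.83), Cx3cr1 (3.6), Cdo1 (3.53), Cish (3.53), Chchd10 (3.25), Thbs1 (3.05), Igfbp3 (3.04), Trp53inp1 (2.54), Galnt15 (2.45), Zbtb16 (2.27), Pdk4 (2.26), Mt1 (2.16), Nr1d1 (2.12), Kng2 (2.1), Mt2 (2.08), Apod (2.02), Bnip3 (2), Lcn2 (2), Serpina3n (1.9), Adm (1.9), C4b (1.7), Fkbp5 (1.57), Cd68 (1.54), Cebpb (1.53), Myc (1.45), Maff (1.43), Per1 (1.31), Il6ra (1.13), Cry2 (1.07), Stat3 (1.05), Nfil3 (0.969) and Foxo3 (0.903). It was negative for Spon2 (-2.76), Cilp2 (-2.55), Chad (-2.49), Fmod (-1.75), Ddit4l (-1.73), Col11a1 (-1.72), Tnmd (-1.6), Ptn (-1.59), Eln (-1.38), Cd34 (-0.942), Msmo1 (-0.916) and Igf1 (-0.747). The control value of Cfd was at 0 in 6 of 7 later libraries, so its difference depends on the prior count and is no measure of size. With each of the 20 libraries left out in turn, some of these differences were not called in every fit, and the number of 20 fits that kept the call was as follows: Cfd (19), Fkbp5 and C4b (18), Saa1 and Adm (17), Chchd10 (15), Chad and Ptn (14), Foxo3 (13), Col11a1 and Msmo1 (12), Nfil3 and Igf1 (11), Lcn2 (10), Tnmd and Kng2 (6), Fmod (3) and Cd34 (1). The other differences were called in all 20 fits.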

How the results depend on the processing

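Counts of calls kept within 1.5 times under the other settings except as follows. For the KPC slope the replicate block gave 1376. For any difference between days, DESeq2 gave 2906, voom 4603, the block 153, the endothelial covariate 2313 and a fit of all 20 libraries 4227. Day 21 against day 14 had 162 calls with library size alone, 808 with DESeq2, 2409 with voom, 0 with the block (edgeR; 2289 genes had an unadjusted p under 0.05 without it), 171 with the covariate, 1334 with all 20 libraries and 1988 with the 7 libraries of those days. Day 26 against day 21 had 3, 4, 97, 1013, 0, 15 and 112 calls with library size alone, no filter, DESeq2, voom, the block, the covariate and all 20 libraries, and 0 by edgeR in the 6 libraries of those days, with and without the replicate block (917 and 823 genes had an unadjusted p under 0.05; DESeq2 called 76 and 31, voom 1 and 2), a fit chosen after seeing the data. Day 26 against day 14 had 4243 with voom, 1027 with the block and 4722 with all 20. Voom gave 2702 for the difference of slopes. The cause was not tested.

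With library size alone, the KPC slope split into 1245 rising and 1220 falling genes, and the control slope into 443 and 1848; voom split the KPC slope into 1674 and 1534, and the difference into 1289 and 1413. Leaving out 1 library moved the KPC slope to between 998 and 4682 calls, any difference to 7 to 5540, day 21 against day 14 to 1 to 1244, day 26 against day 21 to 0 to 3417, day 26 against day 14 to 459 to 5902, the control slope to 793 to 2241 and the difference of slopes to 521 to 4482. Correlations of deviations between same-numbered libraries lay within the range of differently numbered ones, so a pairing of samples by replicate number was not shown. The block gave 1543 for the control slope and 1174 for the difference. Of 63 called genes, 45 stayed called under the block, 48 with voom, 60 with DESeq2 and 58 without the filter, and none changed sign. Day, count table and library codes cannot be told apart, nor can arm and code at days 14 and 21. No gene has a check outside these mice.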
